A study of Mus musculus with 18 samples.

Results

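The immunoproteasome is a form of the proteasome, the barrel-shaped protease that degrades ubiquitin-tagged proteins, in which 3 inducible catalytic subunits take the place of the standard ones. The 5 genes described here code for these subunits, Psmb8 (LMP7, in place of Psmb5), Psmb9 (LMP2, in place of Psmb6) and Psmb10 (MECL-1, in place of Psmb7), and for both chains of the proteasome activator PA28, Psme1 (alpha) and Psme2 (beta). They were chosen by gene symbol, and all 5 are among the 12205 genes of the authors' deposited table. In many cell types interferons raise all of them together. The altered cleavage preference favours peptides that fit MHC class I molecules, and PA28 caps the 20S core and changes which peptides leave it. Astrocytes, the support cells of the brain, are known to carry mainly the standard proteasome at rest and to make immunoproteasomes in inflamed tissue.

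Freshly thawed primary astrocytes of newborn wild-type C57BL mice of both sexes, pooled, were studied in 3 groups whose total culture time was 120 h. They were left untreated, or received TNFα (20 ng/ml) together with IL-1β (0.25 ng/ml) for the last 24 h (after 96 h of culture) or for the last 48 h (after 72 h). RNA-seq measured the amount of each mRNA, and ribosome profiling counted the mRNA fragments of 26 to 34 nt that ribosomes shield from RNase I (footprints, RPF). The 18 libraries form 6 groups of 3 batches. The authors' deposited table has 1 log2 fold change against untreated cells per gene for RNA and footprints at 24 h and 48 h, and 1 value per time for translation efficiency (TE), the footprint change relative to the RNA change. It holds no values per library, so no difference below could be set against the variation among batches or tested, and sequencing depth is not known. Genes are called higher at a log2 value of at least 1 (a doubling) and lower at -1 or less, by size alone. No levels are given either, so a fold change does not say how much of one mRNA there was beside another. In bulk RNA, a change in the number of cells that carry an mRNA cannot be told apart from a change per cell.

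The members lie at 3 places in the mouse genome (GRCm38.p6, positions from RefSeq). Psmb9 (chr17:34182030-34187330, minus strand) and Psmb8 (chr17:34198195-34201454, plus strand) lie in the MHC region, on either side of Tap1, which codes for a chain of the peptide transporter TAP. Psme1 (chr14:55578494-55581527, plus strand) and Psme2 (chr14:55587440-55591101, minus strand) lie 5912 bp apart. Psmb10 (chr8:105935728-105938392, minus strand) lies apart from the others. Psmb9 and Tap1 point away from each other and have only 225 bp between their starts, so this stretch is upstream of both genes. It is shown here with the 250 bases before the starts of Psmb8, Psme1 and Psme2, which, unlike Psmb10, lie near another member. Letters in capitals match a motif searched on both strands, and no matches overlap.
Psmb9 and Tap1, shared, chr17:34187331-34187555, minus strand: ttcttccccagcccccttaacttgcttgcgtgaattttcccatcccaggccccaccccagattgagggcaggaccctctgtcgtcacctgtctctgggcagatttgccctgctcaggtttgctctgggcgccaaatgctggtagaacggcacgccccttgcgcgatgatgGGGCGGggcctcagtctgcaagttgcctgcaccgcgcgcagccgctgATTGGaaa
Psmb8, chr17:34197945-34198194, plus strand: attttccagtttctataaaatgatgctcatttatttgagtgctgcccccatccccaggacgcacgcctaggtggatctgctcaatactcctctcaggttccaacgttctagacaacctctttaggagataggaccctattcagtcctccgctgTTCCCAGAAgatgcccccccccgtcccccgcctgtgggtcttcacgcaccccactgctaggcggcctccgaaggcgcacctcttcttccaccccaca
Psme1, chr14:55578244-55578493, plus strand: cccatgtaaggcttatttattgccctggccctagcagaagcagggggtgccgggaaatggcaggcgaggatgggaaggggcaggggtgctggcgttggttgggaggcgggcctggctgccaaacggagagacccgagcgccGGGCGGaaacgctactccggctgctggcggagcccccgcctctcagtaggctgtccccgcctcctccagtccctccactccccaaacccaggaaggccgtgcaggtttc
Psme2, chr14:55591102-55591351, minus strand: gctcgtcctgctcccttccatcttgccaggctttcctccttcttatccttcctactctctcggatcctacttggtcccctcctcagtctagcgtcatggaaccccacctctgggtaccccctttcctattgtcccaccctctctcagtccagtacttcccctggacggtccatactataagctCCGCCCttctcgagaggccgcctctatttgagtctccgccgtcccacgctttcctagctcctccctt
Psme1, first 30 bases from its start, chr14:55578494-55578523, plus strand: gagctgtgcTTTCGCTTTCccttcccgctg

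The motifs were sought in RefSeq windows from 250 bases before to 50 bases after each gene's start, for which 32851 windows of all genes served as the background. Among them were the interferon-stimulated response element (ISRE, TTTC repeated after a gap of 2 bases, in 3.44% of windows) and the STAT element GAS (TTCNNNGAA, 8.3%). The others were the NF-kB consensus (GGGRNWYYCC, 4.51%), the antioxidant response element (ARE, TGACNNNGC, 12.4%), the NF-Y box (CCAAT, 37.4%) and the Sp1 box (GGGCGG, 35.7%). Here N is any base, R is A or G, W is A or T and Y is C or T. Psme1 held the ISRE letters as TTTCGCTTTC, from base 10 after its start. Psmb8 held the GAS letters as TTCCCAGAA, from position -97, counted back from its start. The stretch shared by Psmb9 and Tap1 held an Sp1 box at -55 and an NF-Y box at -8 from the start of Psmb9, and Psme1 and Psme2 held Sp1 boxes. No motif of the set was present in the window of Psmb10, and the NF-kB letters were in none of the members' windows. Of the standard catalytic genes, Psmb5 held the ARE letters as TGACGTCGC, and Psmb6 as TGACGGAGC, while Psmb7 was not searched. These are matches of letters, and binding was not measured.

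All 5 genes were higher in RNA and in footprints at both times. In RNA at 24 h 5 of 5 members had a log2 value of at least 1, against 7.54% of all genes, and at 48 h again 5 of 5, against 8.11%. In footprints 5 of 5 passed at 24 h, against 7.87% of all genes, and 5 of 5 at 48 h, against 8.13%. The members' median RNA value was 2.52 at 24 h and 1.92 at 48 h, and their median footprint value was 3.11 and 2.48. Over all genes these 4 medians lay between -0.03 and 0.01. By size of value the members fell as follows: Psmb8 and Psmb9 had the largest, both PA28 chains had smaller and closely matched ones, and Psmb10 had a low RNA value beside a high footprint value.

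**Figure D1:**
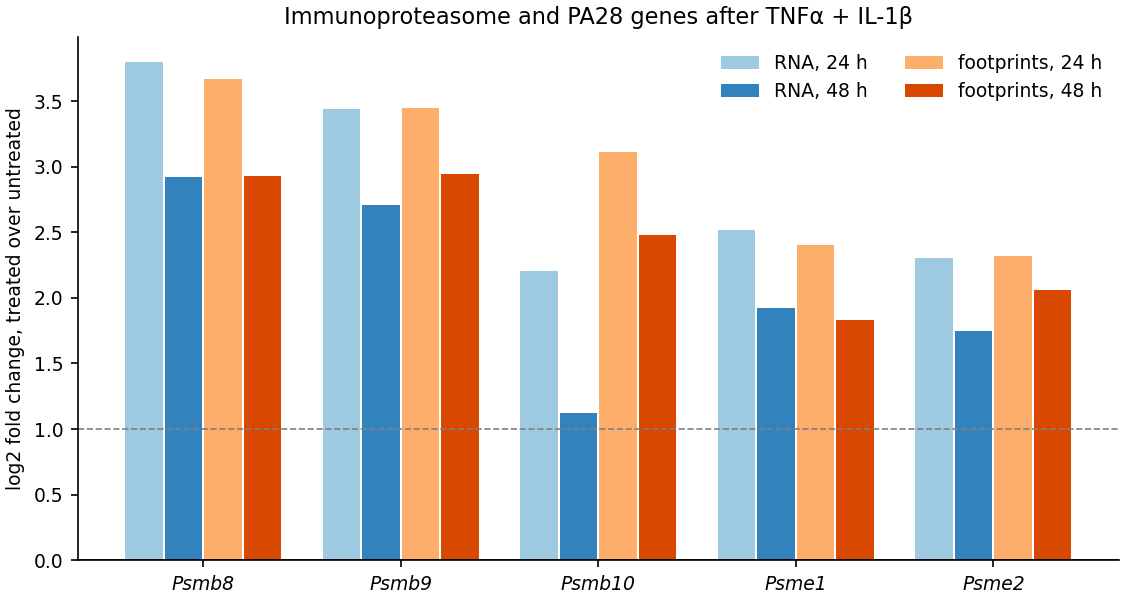
Log2 fold change of treated over untreated cells (y axis) for each member (x axis), 1 bar per measure and time, with no error bars because the table has 1 value each. The dashed line marks a log2 value of 1, and every bar lies above it, the lowest being Psmb10 in RNA at 48 h (1.12).

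Psmb8, whose subunit has the chymotrypsin-like activity of the immunoproteasome, had the largest RNA value of the 5. The authors' deposited table gives it 3.80 in RNA at 24 h and 2.92 at 48 h, that is 13.9-fold and 7.57-fold over untreated cells. In footprints the authors' deposited table gives it 3.67 and 2.93, or 12.7-fold and 7.62-fold. Footprints thus followed RNA closely, and the deposited TE values were -0.15 and -0.13, inside the quartiles of all genes. By RNA at 24 h Psmb8 ranked 201 of 12205 genes from the top.

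Psmb9, whose subunit replaces the caspase-like one, stood just below Psmb8. It had RNA values of 3.44 at 24 h (10.9-fold) and 2.71 at 48 h (6.53-fold) in the authors' deposited table. Its footprint values there were 3.45 and 2.94, or 10.9-fold and 7.70-fold, so that at 48 h the footprint values of Psmb9 and Psmb8 were nearly equal (2.94 and 2.93). TE was -0.05 and 0.16 in the authors' deposited table. In RNA at 24 h it ranked 236 of 12205. With no replicate values, whether Psmb8 and Psmb9 differ from each other could not be tested.

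Psmb10, whose subunit replaces the trypsin-like one, was the member whose RNA and footprints parted. In RNA it had the lowest values of the 5, 2.21 at 24 h (4.62-fold) and 1.12 at 48 h (2.17-fold) in the authors' deposited table. Its footprint values there were 3.11 (8.66-fold) and 2.48 (5.57-fold), above both PA28 genes. By rank it stood at 408 of 12205 in RNA and 260 in footprints at 24 h, and at 888 and 335 at 48 h. At 48 h the gap between footprints and RNA was 1.36 on the log2 scale. Its calls at 48 h in RNA, in TE and in RNA against 24 h lie close to the threshold: taken relative to the median of the noncatalytic 20S core subunits, its RNA value was 0.69, its TE 0.98 and its RNA difference from 24 h -0.98, all short of it, while its footprint value was 1.89.

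The PA28 genes had closely similar values. Psme1, for the alpha chain, had RNA values of 2.52 (5.73-fold) at 24 h and 1.92 (3.79-fold) at 48 h, and footprint values of 2.40 and 1.83, in the authors' deposited table. Psme2, for the beta chain, had RNA values of 2.31 (4.94-fold) and 1.75 (3.36-fold), with 2.32 and 2.06 for footprints, by the authors' deposited table. Psme1 exceeded Psme2 by 0.21 in RNA at 24 h and 0.17 at 48 h and by 0.08 in footprints at 24 h, and lay 0.23 below it in footprints at 48 h (difference -0.23). Both chains join in 1 ring. Psme2 has a near-identical copy, Psme2b on chromosome 11 (chr11:48945345-48946410), and the sources used here do not state how reads common to both were counted, so its values are uncertain to that extent. Psme1 overlaps the neighbouring gene Emc9 by 9 bp at their ends, and Emc9 was at -0.24 in RNA at 24 h in the authors' deposited table.

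**Figure D2:**
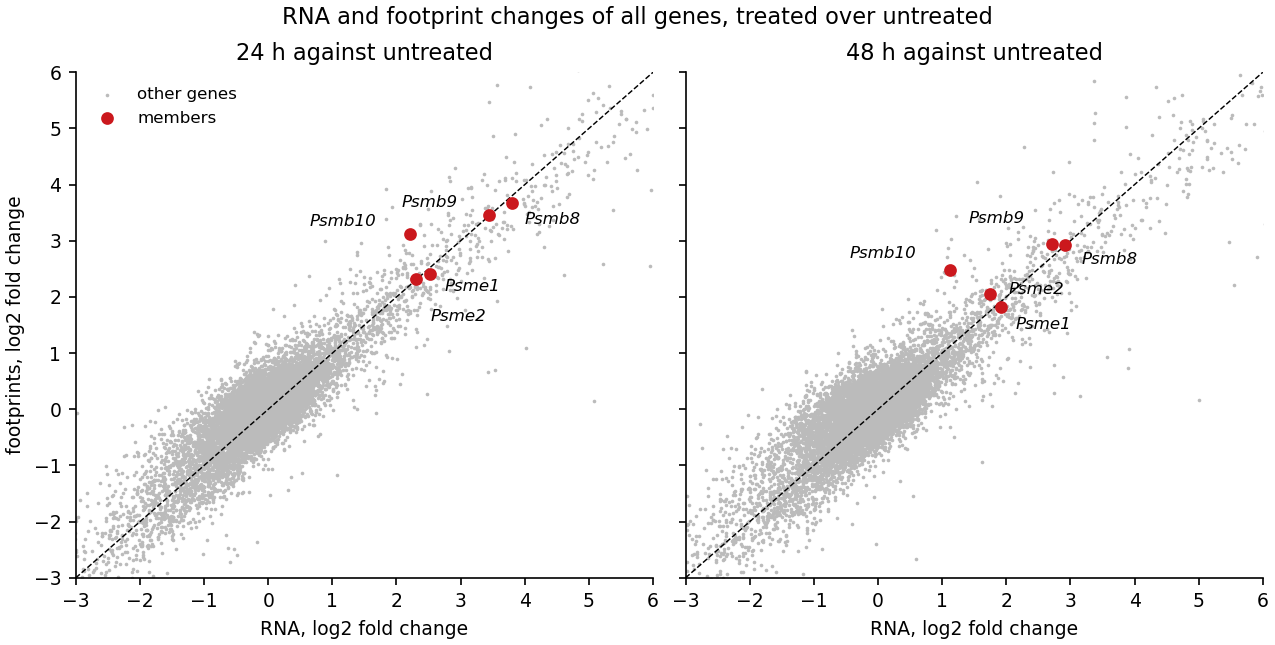
RNA log2 fold change (x axis) against footprint log2 fold change (y axis) at 24 h (left) and 48 h (right), with the members in red and all other genes in grey. The dashed line marks equal change. Psmb10 lies above the line at both times and the other 4 members lie near it. The axes run from -3 to 6 and leave out 193 genes at 24 h and 214 at 48 h.

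Translation efficiency values were higher for Psmb10 than for the other members. Its TE was 0.76 at 24 h and 1.13 at 48 h in the authors' deposited table, while the other 4 members ranged from -0.17 (Psme1) to 0.00 (Psme2) at 24 h and from -0.15 (Psme1) to 0.33 (Psme2) at 48 h. At the threshold of 1, 0 of 5 members were higher in TE at 24 h, against 1.79% of all genes, and 1 of 5 at 48 h, Psmb10, against 2.85%. Psmb10 ranked 557 of 12205 in TE at 24 h and 209 at 48 h, so 4.56% and 1.71% of genes had a value as large. Among the 915 other genes with an RNA value of at least 1 at 24 h, the median TE was -0.19 (quartiles -0.47 and 0.15), and 6.01% of them reached the value of Psmb10. At 48 h there were 985 such genes, with a median of -0.22, and 2.84% reached it. The TE of Psmb10 in the authors' deposited table was smaller than its footprint minus RNA value, by 0.15 at 24 h (0.76 against 0.91) and by 0.23 at 48 h (1.13 against 1.36). In all genes both measures lay within 0.1 of each other in 79.5% at 24 h and 78.0% at 48 h. The sources used here do not say how TE was computed.

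**Figure D3:**
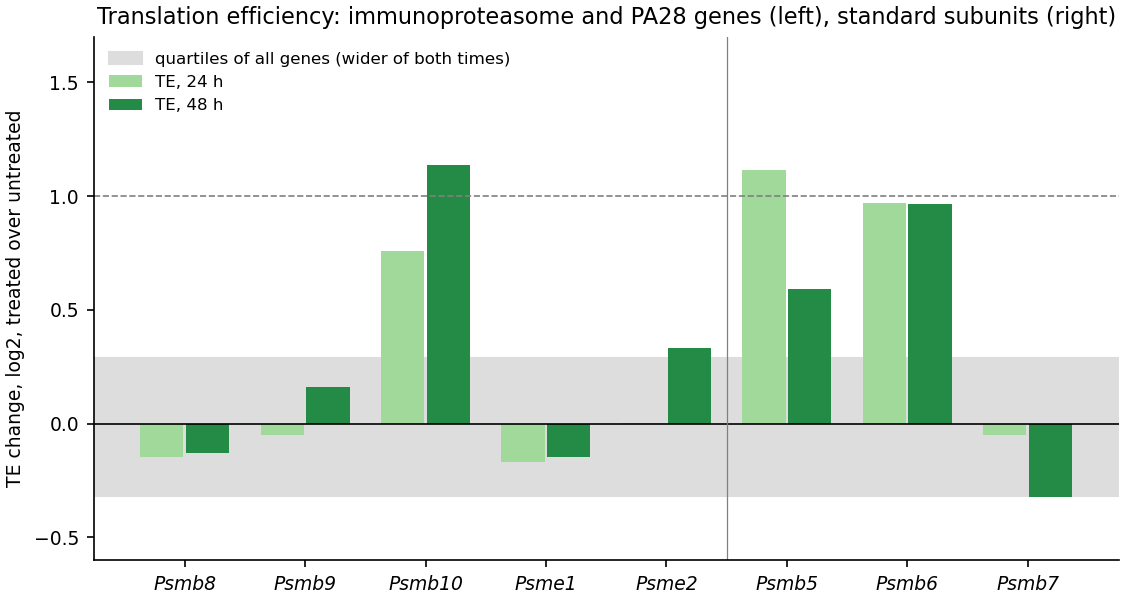
Change in translation efficiency, log2, treated over untreated (y axis), of the 5 members and the 3 standard catalytic subunits (x axis) at 24 h and 48 h. The grey band spans the quartiles of all genes, taking the wider of both times (-0.32 to 0.29), and the dashed line marks 1. Psmb10, Psmb5 and Psmb6 stand above the band at both times.

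At 48 h of treatment all 5 genes had a smaller difference from untreated cells than at 24 h, in RNA and in footprints. Both values of a gene refer to the same untreated libraries, so their difference was taken as the change from 24 h to 48 h. The cytokines were added after 96 h of culture for 24 h of treatment and after 72 h for 48 h. Treatment time therefore cannot be told apart from culture age at their addition. How the fold changes were computed is not given, so a direct comparison of 48 h with 24 h could differ. In RNA the differences were -0.88 for Psmb8, -0.74 for Psmb9, -1.09 for Psmb10, -0.60 for Psme1 and -0.55 for Psme2. Taken this way, the RNA at 48 h stood at 54.3% of its 24 h amount for Psmb8, 60.1% for Psmb9, 47.0% for Psmb10, 66.2% for Psme1 and 68.1% for Psme2. Psmb10 alone passed -1, so 1 of 5 members was lower at 48 h, against 0.926% of all genes. In footprints the differences were -0.74, -0.51, -0.64, -0.57 and -0.26 in the same order of genes, and 0 of 5 passed -1, against 1.07% of all genes. The smallest was that of Psme2, whose footprints at 48 h kept 83.2% of their 24 h amount. Over all genes the quartiles of this difference were -0.12 and 0.12 in RNA and -0.15 and 0.15 in footprints. Of the 915 other genes higher in RNA at 24 h, 52.1% lay below 0, with a median of -0.03 and quartiles of -0.35 and 0.29, and of the 956 other genes higher in footprints, 58.8% lay below 0, with a median of -0.09. In TE the members' differences were all above 0, between 0.02 (Psmb8 and Psme1) and 0.38 (Psmb10), and 0 of 5 passed 1, against 0.533% of all genes. Relative to the median of the noncatalytic 20S core subunits, Psmb8 (-0.06) and Psme1 (-0.05) turned below 0.

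The standard catalytic subunits, which the inducible ones replace, were near 0 in RNA. The authors' deposited table gives -0.08 at 24 h and -0.38 at 48 h for Psmb5, 0.00 and -0.31 for Psmb6, and 0.34 and 0.33 for Psmb7. In footprints Psmb5 (0.90 and 0.14) and Psmb6 (0.95 and 0.59) lay above their RNA values, and Psmb7 (0.33 and 0.07) did not, by the authors' deposited table. None of the 3 passed 1 in RNA or footprints at either time, where 7.54% and 8.11% of all genes did in RNA and 7.87% and 8.13% in footprints. None passed -1, where 9.55% and 10.3% of all genes were lower in RNA at 24 h and 48 h and 8.7% and 8.71% in footprints. In TE Psmb5 was at 1.11 and 0.59 and Psmb6 at 0.97 and 0.96 in the authors' deposited table, while Psmb7 was at -0.05 and -0.32. Psmb5 and Psmb6 thus share with Psmb10 a footprint change above the RNA change. Of all genes, 12% at 24 h and 14.5% at 48 h had a TE of at least 0.5. Another proteasome gene, the assembly chaperone gene Psmg3, had TE values of 1.64 and 1.46 in the authors' deposited table. The TE medians of the noncatalytic 20S core subunits (0.12 and 0.16) and of the 19S cap genes (-0.01 and 0.06) lay inside the quartiles of all genes.

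Set as pairs, each inducible subunit gained on the standard subunit it replaces. The ratio of Psmb8 to Psmb5 stood 14.8-fold over its value in untreated cells in RNA at 24 h and 9.86-fold at 48 h, and 6.80-fold and 6.93-fold in footprints. For Psmb9 over Psmb6 the ratio was 10.9-fold and 8.11-fold in RNA, and 5.66-fold and 5.11-fold in footprints. For Psmb10 over Psmb7 it was 3.65-fold and 1.72-fold in RNA, and 6.90-fold and 5.31-fold in footprints. In RNA the pairs thus ranged from 3.65-fold to 14.8-fold at 24 h and from 1.72-fold to 9.86-fold at 48 h. Psmb10 over Psmb7 in RNA at 48 h stayed short of a doubling. In footprints the pairs lay between 5.66-fold and 6.90-fold at 24 h and between 5.11-fold and 6.93-fold at 48 h. These are changes of ratios, and whether the pairs differ from each other could not be tested.

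**Figure D4:**
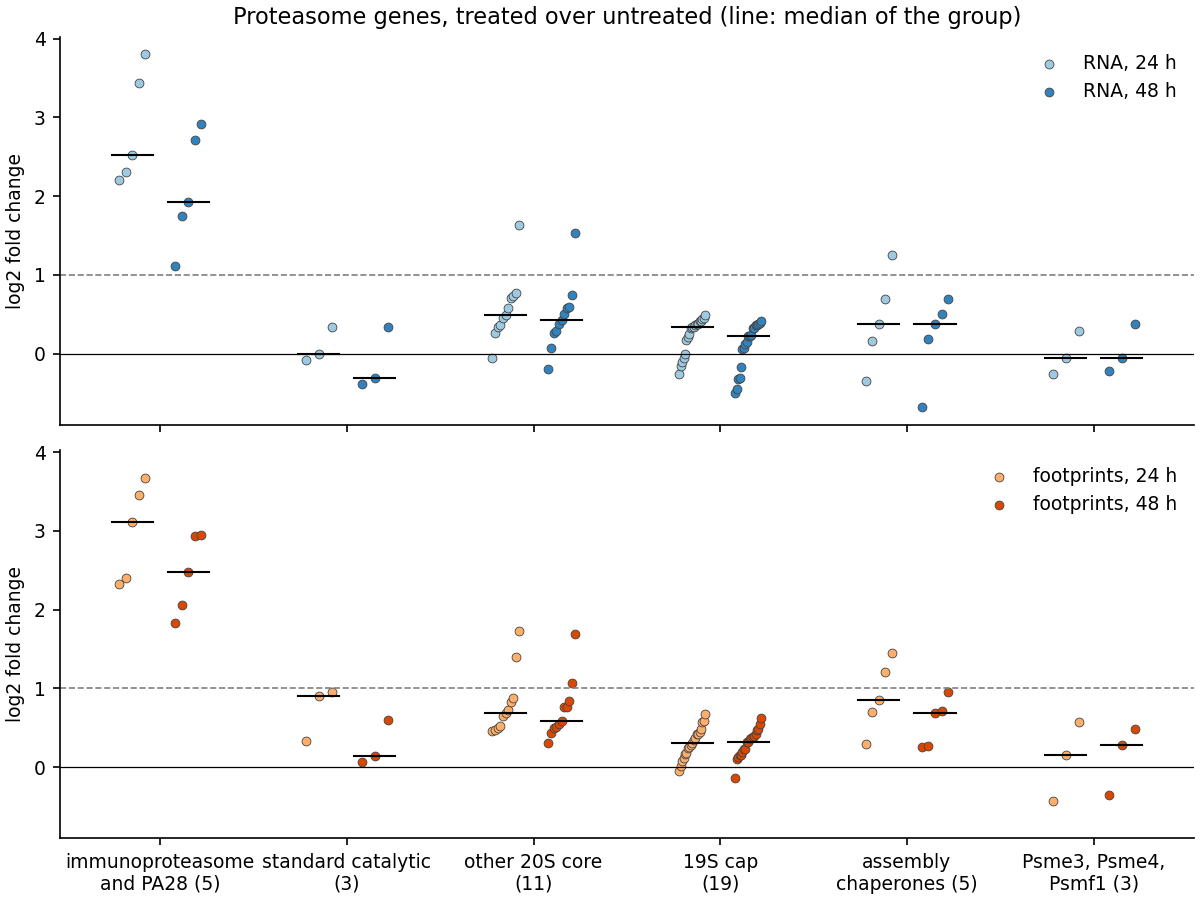
Log2 fold change of treated over untreated cells (y axis) in RNA (top) and footprints (bottom) at 24 h and 48 h, 1 point per gene, for the members and 5 other groups of proteasome genes (x axis, number of genes in brackets). Black lines are group medians over genes and the dashed line marks 1. All members lie above 1, and the medians of the other groups lie below it.

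Of all genes 7.54% and 8.11% were higher in RNA at 24 h and 48 h, and 7.87% and 8.13% in footprints. Lower were 9.55% and 10.3% in RNA, and 8.7% and 8.71% in footprints. Of the 11 measured noncatalytic subunits of the 20S core, 1 was higher in RNA at 24 h and 1 at 48 h, and 2 in footprints at each time. Their medians were 0.49 and 0.43 in RNA and 0.68 and 0.59 in footprints. The highest was the alpha ring gene Psma6, at 1.64 and 1.53 in RNA in the authors' deposited table, and the lowest at 24 h was Psmb3 at -0.05. In TE these 11 subunits ranged from -0.17 to 0.60 at 24 h and from -0.52 to 0.82 at 48 h. Of the 19 genes of the 19S cap, which unfolds substrates, 0 were higher or lower in RNA or footprints. Their RNA medians were 0.33 and 0.22, with RNA values at 24 h from -0.26 (Psmc3) to 0.49 (Psmd1) in the authors' deposited table. In TE they ranged from -0.40 to 0.60 at 24 h and from -0.32 to 0.84 at 48 h. Among the 5 chaperones that assemble the core, Psmg4 was the highest in RNA (1.25 at 24 h and 0.70 at 48 h) and Psmg3 the lowest (-0.35 and -0.68) in the authors' deposited table. Pomp, which completes the core and is known to favour immunoproteasome assembly, had 0.69 and 0.51 in RNA and 1.20 and 0.71 in footprints by the authors' deposited table. The other activators did not follow PA28 past the threshold: Psme3, the nuclear activator PA28 gamma, had 0.29 and 0.38 in RNA, and Psme4, which codes for PA200, had -0.25 and -0.05, in the authors' deposited table. The inhibitor gene Psmf1 had -0.05 and -0.22 there. Psmb11, the thymus catalytic subunit, is not among the genes of the table.

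Downstream of the proteasome lies the class I route. Of its 12 listed genes, 9 were higher in RNA at 24 h and 9 at 48 h, and in footprints likewise 9 and 9, with RNA medians of 2.08 and 1.56. Among all genes 7.54% and 8.11% were higher in RNA and 7.87% and 8.13% in footprints. The transporter genes Tap1 (2.10 and 1.59) and Tap2 (2.06 and 1.37) had RNA values close to those of Psme2 (2.31 and 1.75) in the authors' deposited table. Nlrc5, the transactivator of class I genes, was highest of the list in RNA at 24 h (3.87, and 3.46 at 48 h), and the chaperone gene Calr was lowest at 0.43 and 0.38, in the authors' deposited table. The class I chain genes H2-K1 (3.48 and 3.49) and H2-D1 (3.23 and 3.27) and B2m (2.42 and 2.72), the common light chain, had RNA values at 48 h no smaller than at 24 h in the authors' deposited table. Each member's RNA value was smaller at 48 h, and so were those of Tap1, Tap2 and Nlrc5. The median difference in RNA from 24 h to 48 h over the 12 listed genes was -0.23. The H2 genes resemble each other in sequence, so their values may mix reads. Of 7 cytosolic peptidases that trim or destroy proteasome products, 0 were higher at either time and 1 was lower, in RNA at 48 h (10.3% of all genes). This was Thop1, the lowest of the list, at -0.74 and -1.19 in RNA in the authors' deposited table, and Tpp2 was the highest at 0.46 and 0.70.

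Most measured genes listed for the interferon and NF-kB routes were higher as well. Whether they acted on the members in these cells was not tested. Of the 15 measured genes of these routes, 11 were higher in RNA at 24 h and 9 at 48 h, and 11 and 10 in footprints. The shares of all genes were 7.54% and 8.11% in RNA and 7.87% and 8.13% in footprints. Irf1, a transcription factor known to act on Psmb8, Psmb9 and Psmb10, was the highest in RNA at 24 h, with 3.18 and 2.74 in RNA and 3.55 and 3.14 in footprints by the authors' deposited table. Irf2, a competitor of Irf1, had the lowest RNA value at 24 h, 0.28, by the authors' deposited table. The interferon genes Ifnb1 and Ifng and the gene of the factor Irf8 are not among the genes of the table. For the standard proteasome genes, the factor gene Nfe2l1 had 0.46 and 0.15 in RNA in the authors' deposited table, and of its list of 3 Nfe2l2 was highest (1.01 and 0.87) and Ddi2, the protease that activates Nfe2l1, lowest (0.03 and 0.12). Among 8 genes of ubiquitin and ubiquitin-like modifiers, 6 were higher at each time in RNA and in footprints, against the same shares of all genes. The highest was Ubd, whose product FAT10 delivers proteins to the proteasome, at 7.19 and 7.42 in RNA in the authors' deposited table.

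The members' neighbours on the chromosomes did not all share their change. In the MHC cluster, Psmb9, Tap1, Psmb8 and Tap2 follow each other within 34292 bp and were all higher at both times, while H2-DMb1, the next measured gene on the Psmb9 side, had 0.04 and -0.05 in RNA in the authors' deposited table. Although Psmb9 and Tap1 share the 225 bp shown above, Psmb9 exceeded Tap1 in RNA, with 3.44 against 2.10 at 24 h and 2.71 against 1.59 at 48 h in the authors' deposited table. On chromosome 14, Emc9 lies between the PA28 genes and had -0.24 and -0.20 in RNA, and Rnf31, which begins 611 bp beyond Psme2, had 0.04 and -0.43, in the authors' deposited table. The next gene, Irf9, part of the interferon-activated factor ISGF3, had 1.14 and 0.76 in the authors' deposited table. Around Psmb10, the measured genes Pskh1 (-0.41 and -0.28), Lcat (0.15 and 0.11) and Slc12a4 (-0.45 and -0.40) stayed between -1 and 1 in RNA in the authors' deposited table.

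**Figure D5:**
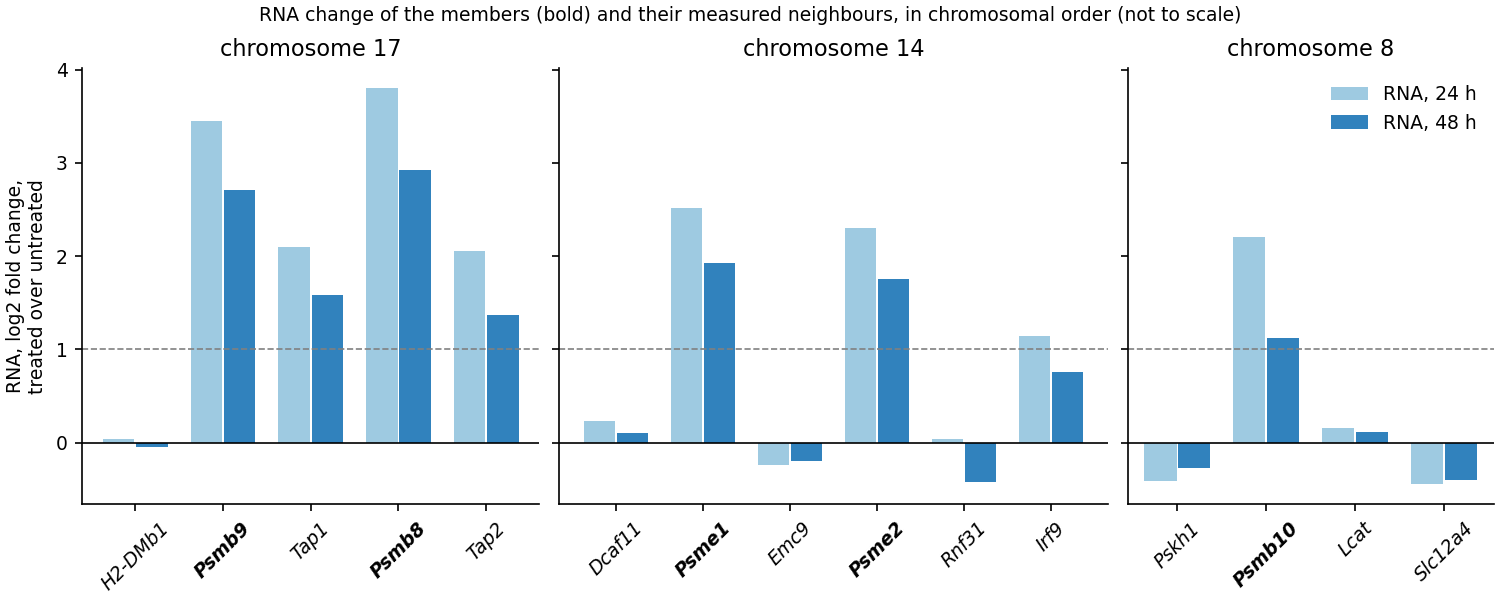
RNA log2 fold change of treated over untreated cells (y axis) at 24 h and 48 h for the members (bold) and the measured genes within 25000 bp of them (x axis, chromosomal order, not to scale). On chromosome 17 the members and the TAP genes all lie above 1, while on chromosomes 14 and 8 the genes beside the members, other than Irf9, lie below 0.5.

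Genes with a pattern like that of each member were sought among all others by Euclidean distance over 4 values, RNA and footprints at 24 h and 48 h, all of which share the untreated libraries. The members themselves fell close in pairs: Psmb8 and Psmb9 were 0.47 apart and Psme1 and Psme2 0.37, whereas Psmb10 was 1.10 from Psme2, its nearest fellow member. Nearest to Psmb8 were Parp14 (0.25), an ADP-ribosyltransferase gene, Ddx60 (0.40) and Bmp2 (0.42), and nearest to Psmb9 Irf1 (0.35), Parp14 (0.37) and Bmp2 (0.37). Dtx3l (0.19), Dse (0.23) and Parp9 (0.28) lay nearest to Psme1, and Vgf (0.24), Helz2 (0.28) and Tapbp (0.30), the peptide-loading factor tapasin, nearest to Psme2. Nearest to Psmb10 were Icam5 (0.41), for an adhesion molecule of neurons, Igsf21 (0.47) and Slc13a3 (0.68). Rank by rank these were farther off than the genes nearest to the other members, though Icam5 was slightly closer than Bmp2 was to Psmb8 (0.42). With TE added, 3 of the 3 genes nearest to Psme1, 2 of 3 for Psmb8, Psmb10 and Psme2, and 1 of 3 for Psmb9 came up again.

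Markers of cell types were checked for changes alongside the members, though without levels they cannot say how many such cells there were. Among all genes 7.54% were higher and 9.55% lower in RNA at 24 h, and 8.11% and 10.3% at 48 h. All 10 astrocyte markers are in the table, 2 of them higher and 5 lower in RNA at 24 h, with RNA values from -2.69 (Aldoc) to 2.17 (Slc1a2) in the authors' deposited table. Of 15 microglia and macrophage markers, which include cells known for strong immunoproteasome expression, 11 are not among the genes of the table, Aif1, Cx3cr1, Itgam, Csf1r, Ptprc and Tyrobp among them. Of the measured ones, 1 was higher in RNA at 24 h, Cd68 at 1.80, and 1 at 48 h, Adgre1 at 7.55 (0.57 at 24 h), in the authors' deposited table. Adgre1 had footprint values of 0.73 at 24 h and 4.62 at 48 h there, and TE values of -1.79 and -2.08. Its TE at 24 h was far below its footprint minus RNA value, and its level is not known, so its values are uncertain. Of 6 fibroblast markers 3 were higher and 0 lower in RNA at 24 h, from Pdgfrb at -0.96 to Dcn at 4.16, and 3 were higher and 1 lower at 48 h, from Pdgfrb at -1.16 to Dcn at 5.73, by the authors' deposited table. All 3 measured endothelial markers were lower in RNA at 24 h. Whether any of these cells contributed to the members' values was not tested.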

How the data were processed

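RNA-seq and ribosome profiling libraries (18, in 6 groups of 3 batches) were made from untreated and cytokine-treated primary astrocytes. TopHat2, featureCounts and the mm10 build are named per the submitters' processing notes, with no versions. The protocol names a stranded total RNA kit, whereas the molecule label reads polyA RNA. The authors deposited log2 fold changes against untreated cells, 1 per gene and comparison. TE columns carry no scale in their header and were taken as log2, since most values lie near footprint minus RNA. Normalization, the combining of batches and the fold change method are not given in the sources used here, nor is how reads matching several genes were treated, which bears on Psme2. Depth and its precision are unknown.

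The planned count tests did not apply to such values, so the fallback was used: no test, and calls by size (1 or more, -1 or less). Percentages of all genes called are over 12205 genes, without a filter (no value was missing). Named were the members, the fixed genes and the highest and lowest of each list by RNA at 24 h, and the 3 genes nearest to each member. B2m, H2-K1, H2-D1, Nfe2l1, Relb, Psmd10, the chromosomal neighbours and the cell type markers were named outside that rule, after their values were seen. Some genes that the rule names are not reported here. Members and lists were chosen with earlier results of these data known. Gene identifiers matched the table of gene names for 12201 of 12205 genes. Sequences and positions are RefSeq's on GRCm38.p6. Python 3.11.15, pandas 2.3.3, numpy 2.4.6 and matplotlib 3.10.9 were used, and counting and the distance search were tested on simulated data.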

Additional observations from a re-analysis of the deposited data

How the results depend on the processing

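With a threshold of 2, members higher numbered 2 of 5 in RNA at 48 h (3.91% of all genes) and 0 in TE at 48 h (0.147%), and 0 were lower at 48 h than at 24 h in RNA (0.123%). With a threshold of 0.5, 1 member was higher in TE at 24 h (12% of all genes), and 5 in RNA (3.42% of all genes) and 4 in footprints (4.61%) were lower at 48 h than at 24 h. Subtracting the median of the noncatalytic 20S core subunits, which shifts all genes by -0.49 in RNA and -0.68 in footprints at 24 h, left 0 members past 1 in TE at 48 h and 0 past -1 in RNA at 48 h against 24 h, because Psmb10 lay just beyond the threshold. The other counts stayed within 1.5 times. Subtracting the median of all genes kept the sign of 45 of 45 member values, and the core median that of 42 of 45, the others being Psme2 in TE at 24 h (-0.11) and the TE differences of Psmb8 and Psme1. TE taken as footprint minus RNA kept the sign of 13 of 15, and those that turned, Psmb9 at 24 h and Psmb8 at 48 h, were within 0.14 of 0. No called value turned. No paired analysis was possible because the table holds 1 value per gene and comparison and none per batch, and for the same reason no batch could be left out and no test run. Depth and the spread between batches are unknown and limit every comparison among members.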

Other observations

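Beyond the lists, Psmd10, which codes for the 19S assembly chaperone gankyrin and was chosen after its values were seen, stood at 2.01 and 2.04 in RNA and 1.77 and 1.64 in footprints (authors' deposited table), close to the PA28 genes in RNA at 48 h but without their lower value at 48 h than at 24 h. The assembly chaperone gene Psmg3 had a TE of 1.64 at 24 h and 1.46 at 48 h in the authors' deposited table, above that of Psmb10. Relb, of the NF-kB family, also had TE values near 1 (1.00 and 1.08 in the authors' deposited table) beside RNA values of 2.49 and 2.03.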
